A study of Mus musculus with 8 samples.

Results

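Polycomb repressive complex 2 (PRC2) was followed through 10 of its genes, chosen by name among the 23038 gene symbols of the expression tables. They were the catalytic subunits Ezh1 and Ezh2, the core subunits Eed and Suz12, the histone chaperones Rbbp4 and Rbbp7, and the accessory subunits Jarid2, Mtf2, Phf1 and Phf19. All 10 were found in all 8 libraries of mouse pluripotent stem cells and all 10 passed the filter on low values, Phf1 only in a joint unit with its neighbour Kifc5b. CDGC1 and CDGC6 were stem cell lines made from teratoma cells of the new-born testis in mice that lack a working Dnd1, a germ line protein that binds RNA. Both had the strain label 129Sv with the Dnd1ter/ter genotype and an Oct4deltaPE-GFP reporter, and both were at passages 15 to 18. Dnd1-KD cells were E14tg2a embryonic stem (ES) cells of the 129/Ola strain with a Dnd1 knockdown, and control cells were E14tg2a ES cells without it. Both E14tg2a groups had the genotype label WT and were at passages 10 to 12. All 4 groups grew in DMEM with serum and LIF, a cytokine that maintains mouse ES cells, and each gave 2 libraries. Each derived group was 1 cell line, and its origin, strain, genotype and passage all differ from those of the E14tg2a cells, so these cannot be told apart. Whether both libraries of a group had cultures of their own is not stated, so p-values cover no more than library-to-library spread that may be technical.

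PRC2 places methyl groups on lysine 27 of histone H3, a mark of silenced genes. EZH2 or its less active paralog EZH1 is the enzyme, EED binds the finished mark and stimulates the enzyme, and SUZ12 holds the complex together and forms the platform for the other subunits. A complex with one of the Polycomb-like proteins PHF1, MTF2 or PHF19 is called PRC2.1, and one with JARID2 and AEBP2 is called PRC2.2. In ES cells PRC2 is known for keeping developmental regulators such as the Hox genes silent, and ES cells without it keep dividing but differentiate poorly.

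Expression was given as FPKM, which divides fragments by transcript length and library total, so levels can be set side by side between genes. Read counts were not in the files. Fragment totals implied by the files' own intervals ran between 10.7 M and 18.0 M a library. Unnamed assembled transcripts took up 76.8 to 85.6% of a library's total FPKM. Group differences are on the log2 scale of FPKM + 1, which understates the change of genes near 1 FPKM, and each has its standard error (SE). P-values are those of limma, adjusted by Benjamini-Hochberg over the 11893 units tested. The targeted gene had no value that checks the labels. Dnd1 was listed at 0 in the CDGC1, CDGC6 and control libraries, and in the Dnd1-KD libraries it was joined with its neighbour Hars at 57.6 and 53.9 FPKM, while Hars alone had 65.8 and 65.0 FPKM in control libraries. Hprt, which E14tg2a cells are known to lack in working form, had 121 to 133 FPKM in the derived lines and 0.359 to 0.642 FPKM in both E14tg2a groups.

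Promoter sequences are shown for 6 of the genes because E2F factors are known to activate Ezh2, Eed and Suz12 with the genes of S phase, and genes of S phase moved with some of the differences below. Each runs from 250 bases before to 15 bases after the RefSeq transcription start (build GRCm38.p6) and is written 5′ to 3′ on the strand of the gene. Capitals mark the letters TTTCCCGC, TTTGGCGC or TTTCGCGC on either strand, which were searched as E2F words. The windows of Ezh2 (chr6:47595016-47595280, minus strand), Suz12 (chr11:79992856-79993120, plus strand) and Phf19 (chr2:34913962-34914226, minus strand) each hold one. Those of Eed (chr7:89980962-89981226, minus strand), a core subunit that was lower in Dnd1-KD cells, of Ezh1 (chr11:101226449-101226713, minus strand), the paralog of Ezh2, and of Mtf2 (chr5:108065424-108065688, plus strand), the member that fell most in CDGC1, hold none. Phf19, which passed no test between groups in the deposited values, is shown because it is the third member with the word.
Ezh2: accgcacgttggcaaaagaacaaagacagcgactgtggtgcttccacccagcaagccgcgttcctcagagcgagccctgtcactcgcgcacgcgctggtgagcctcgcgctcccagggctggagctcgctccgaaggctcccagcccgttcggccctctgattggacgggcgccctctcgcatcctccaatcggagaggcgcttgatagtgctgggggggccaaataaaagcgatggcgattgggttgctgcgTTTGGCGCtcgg
Suz12: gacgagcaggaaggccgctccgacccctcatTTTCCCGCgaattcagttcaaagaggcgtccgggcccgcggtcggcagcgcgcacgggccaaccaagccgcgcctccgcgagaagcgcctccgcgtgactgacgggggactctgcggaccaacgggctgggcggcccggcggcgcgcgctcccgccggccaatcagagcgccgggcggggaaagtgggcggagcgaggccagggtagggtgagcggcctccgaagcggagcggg
Phf19: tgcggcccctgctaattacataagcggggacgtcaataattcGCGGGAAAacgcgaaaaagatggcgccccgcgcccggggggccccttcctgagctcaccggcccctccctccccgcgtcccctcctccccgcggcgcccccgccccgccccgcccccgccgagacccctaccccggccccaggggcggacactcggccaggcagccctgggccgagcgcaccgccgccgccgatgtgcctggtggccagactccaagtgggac
Eed: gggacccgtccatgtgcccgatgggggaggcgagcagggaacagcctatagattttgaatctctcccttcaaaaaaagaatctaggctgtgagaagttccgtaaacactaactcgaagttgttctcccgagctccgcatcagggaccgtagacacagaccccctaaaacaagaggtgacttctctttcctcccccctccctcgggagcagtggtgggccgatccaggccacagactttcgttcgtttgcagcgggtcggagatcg
Ezh1: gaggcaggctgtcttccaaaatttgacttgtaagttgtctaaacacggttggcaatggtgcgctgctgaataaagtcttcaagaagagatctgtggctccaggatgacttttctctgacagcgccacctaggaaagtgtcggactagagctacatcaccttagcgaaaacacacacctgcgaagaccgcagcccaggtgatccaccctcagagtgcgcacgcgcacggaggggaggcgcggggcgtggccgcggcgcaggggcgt
Mtf2: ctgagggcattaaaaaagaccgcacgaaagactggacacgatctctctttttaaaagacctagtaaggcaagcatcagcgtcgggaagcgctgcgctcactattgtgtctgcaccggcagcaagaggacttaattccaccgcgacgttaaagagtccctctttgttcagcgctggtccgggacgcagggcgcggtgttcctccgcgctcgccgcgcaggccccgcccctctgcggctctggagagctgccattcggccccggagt
Counted with the start as position 1 and the base before it as −1, the word began at position 4 in Ezh2, at −219 in Suz12 and at −208 in Phf19. Counted in the first window RefSeq lists for each gene, 300 bases long with 50 bases after the start, such a word was found in 3 of 10 members and in 1.91% of 27025 genes. CCAAT on either strand was found in 6 of 10 members and in 37.9% of genes. The GC box letters GGGCGG were found, on either strand, in 7 of 10 members and in 35.9% of genes. The letters TATAAA, searched on either strand as well, were found in 0 of 10 members and in 14.2% of genes. No searched word is contained in another, though matches of different words can share letters. These windows of the 10 members held 17 to 41 CG pairs, against a median of 7 over all genes. A match of letters is a description of the window and not a site of binding.

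The members spanned a wide range of levels. Rbbp7 was the highest in 6 of the 8 libraries, at 197 to 305 FPKM over all 8, and Phf19 the lowest at 1.20 to 1.83 FPKM. Ezh2, Eed, Suz12 and Jarid2 lay between 42.2 and 128 FPKM in every library. Ezh1 lay between 1.96 and 8.44 FPKM.

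**Figure D1:**
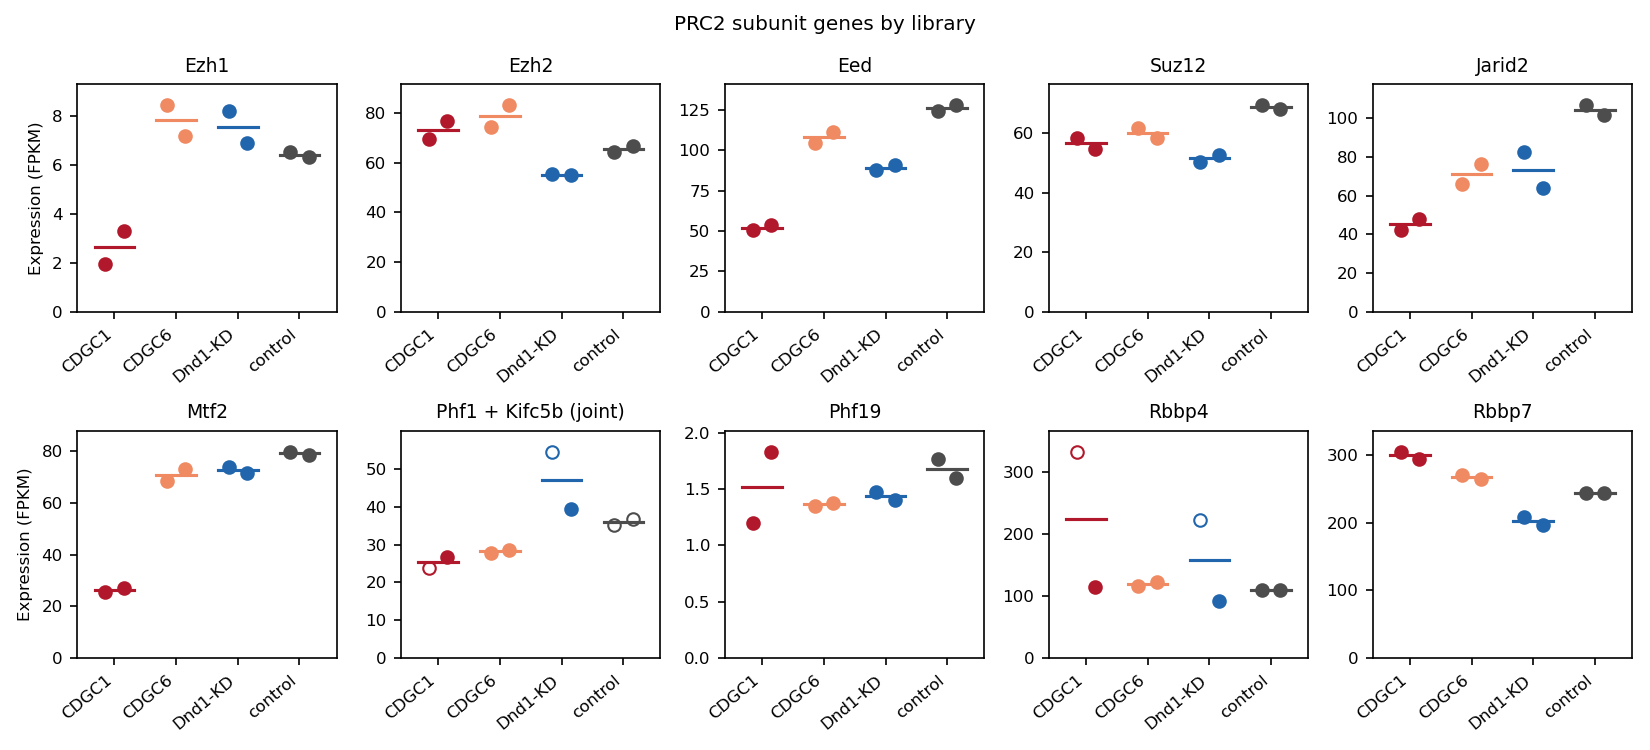
Expression of the 10 PRC2 genes in FPKM (vertical axes start at 0) in CDGC1, CDGC6, Dnd1-KD and control libraries; each point is 1 library and each line the mean of 2. Open points mark Rbbp4 entries that run over 1 kb past the gene and libraries where Phf1 and Kifc5b share 1 entry; filled points in that panel are the sum of both. CDGC1 is far below the other groups for Ezh1, Eed, Jarid2 and Mtf2.

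Of the catalytic subunits, Ezh1 fell in CDGC1, while no difference of Ezh2 from control passed the test. Ezh1 (chromosome 11, 101191115 to 101226463, mm10, minus strand) had 1.96 and 3.30 FPKM in CDGC1, 8.44 and 7.20 in CDGC6, 8.19 and 6.90 in Dnd1-KD cells, and 6.52 and 6.31 in control libraries. Both CDGC1 libraries were below all others, and the other 3 groups lay close together. CDGC1 was at 40.9% of the control mean (log2 difference −1.06 ± 0.19, SE; adjusted p = 0.00487, limma). The file's own interval for the second CDGC1 library was wide, 1.38 to 5.21 FPKM. From the highest to the lowest mean the order was CDGC6, Dnd1-KD, control and CDGC1, and of these neighbours control and CDGC1 alone passed the test of their difference.

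Ezh2 (chromosome 6, 47530139 to 47595341, minus strand) had 69.4 and 76.7 FPKM in CDGC1, 74.2 and 83.1 in CDGC6, 55.4 and 55.0 in Dnd1-KD cells, and 64.1 and 66.6 in control libraries. The Dnd1-KD libraries were the lowest and the 4 libraries of the derived lines the highest, without overlap between Dnd1-KD and any other group. No difference from control passed: the log2 difference was 0.16 ± 0.08 in CDGC1 (adjusted p = 0.158), 0.26 ± 0.08 in CDGC6 (adjusted p = 0.0719) and −0.24 ± 0.08 in Dnd1-KD (adjusted p = 0.0631). The Dnd1-KD value passed when either CDGC1 library was left out (adjusted p = 0.0482 for each), with median-ratio scaling (0.0374) and with only the compared groups in the limma fit (0.0215). Against Dnd1-KD, Ezh2 was higher in CDGC1 (0.40 ± 0.08, adjusted p = 0.00627, limma) and in CDGC6 (0.50 ± 0.08, adjusted p = 0.00328).

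Within a library, the ratio of Ezh2 to Ezh1 was 35.5 and 23.3 in CDGC1, 8.80 and 11.5 in CDGC6, 6.77 and 7.96 in Dnd1-KD cells, and 9.84 and 10.6 in control. A ratio within a library does not depend on how the library was scaled. CDGC1 stood apart from the other 3 groups, and its 2 libraries differed from each other by more than those of any other group.

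The core subunits Eed and Suz12 both fell in Dnd1-KD cells, and in CDGC1 Eed fell further than Suz12. Eed (chromosome 7, 89954654 to 89980983, minus strand) had 50.8 and 53.4 FPKM in CDGC1, 105 and 111 in CDGC6, 87.6 and 90.6 in Dnd1-KD cells, and 124 and 128 in control libraries. No 2 groups overlapped. The difference from control was −1.26 ± 0.06 in CDGC1 (adjusted p = 3.2e-05, limma) and −0.50 ± 0.06 in Dnd1-KD (adjusted p = 0.00333), or 41.3% and 70.6% of the control mean. In CDGC6 it was −0.22 ± 0.06 (adjusted p = 0.0571), which passed with quantile normalization (0.0262) and without the first or second CDGC1 library (0.0487 and 0.0486).

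Suz12 (chromosome 11, 79993106 to 80034123, plus strand) had 58.3 and 54.8 FPKM in CDGC1, 61.7 and 58.5 in CDGC6, 50.4 and 52.7 in Dnd1-KD cells, and 69.4 and 68.1 in control libraries. Both control libraries were above all others, and CDGC1 and CDGC6 lay close together. Suz12 was lower than control in Dnd1-KD (−0.41 ± 0.06, adjusted p = 0.00634, limma) and in CDGC1 (−0.28 ± 0.06, adjusted p = 0.0131). The Dnd1-KD call was lost without the first control library (adjusted p = 0.0582), and the CDGC1 call without the first or the second (0.0882 and 0.0688). The ratio of Eed to Suz12 was 0.871 and 0.975 in CDGC1 libraries, and 1.70 to 1.91 in the 6 libraries of the other groups.

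Of the histone chaperones, which PRC2 shares with other chromatin complexes, Rbbp7 was higher than control in CDGC1 and lower in Dnd1-KD. Rbbp7 (chromosome X, 162760402 to 162779092, plus strand) had 305 and 294 FPKM in CDGC1, 271 and 265 in CDGC6, 209 and 197 in Dnd1-KD cells, and 245 and 244 in control libraries. No 2 groups overlapped. The difference from control was 0.29 ± 0.06 in CDGC1 (adjusted p = 0.00705, limma), 0.13 ± 0.06 in CDGC6 (adjusted p = 0.161) and −0.27 ± 0.06 in Dnd1-KD (adjusted p = 0.0163). The CDGC1 call was lost without the first or second control library (adjusted p = 0.0522 and 0.0523), and the Dnd1-KD call without either of these (0.104 and 0.0969), without the second Dnd1-KD library (0.0789) and with quantile normalization (−0.07, adjusted p = 0.402).

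Rbbp4 (chromosome 4, 129307100 to 129335370, minus strand) had 333 and 115 FPKM in CDGC1, 116 and 123 in CDGC6, 223 and 92.4 in Dnd1-KD cells, and 110.4 and 109.6 in control libraries. The first CDGC1 and the first Dnd1-KD library stood far above their own replicates and above all other libraries. In those 2 libraries alone the assembled Rbbp4 entry ran outside the annotated gene, by 7.61 kb in CDGC1 and 13.1 kb in Dnd1-KD, and reached further into Sync, a gene on the other strand that overlaps the end of Rbbp4 and was listed at 0 in all 8 libraries. No comparison of Rbbp4 passed, with an SE of 0.56 in each. Entries of other members also ran over 1 kb past their genes, those of Mtf2 in 3 libraries, of Rbbp7 in both control libraries and of Phf19 in 1 control library. They lay at 0.912 to 1.26 times the median of the gene's other libraries, against 2.95 and 1.98 times for Rbbp4. With Rbbp4 set to missing in the 2 libraries, an alternative chosen after the values were seen, its difference was 0.07 in CDGC1 (adjusted p = 0.544, limma), 0.12 in CDGC6 (0.278) and −0.25 in Dnd1-KD (0.0847) against control. The lone library left in CDGC1 and in Dnd1-KD was then assumed to vary like the other groups. Under the same setting Rbbp4 was higher in CDGC1 than in Dnd1-KD (0.32, adjusted p = 0.0454) and higher in CDGC6 than in Dnd1-KD (0.37, adjusted p = 0.0226). With all 8 libraries, CDGC1 against control passed only without the second CDGC1 library (1.59, adjusted p = 0.0480), where the extended entry alone stood for the group.

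**Figure D2:**
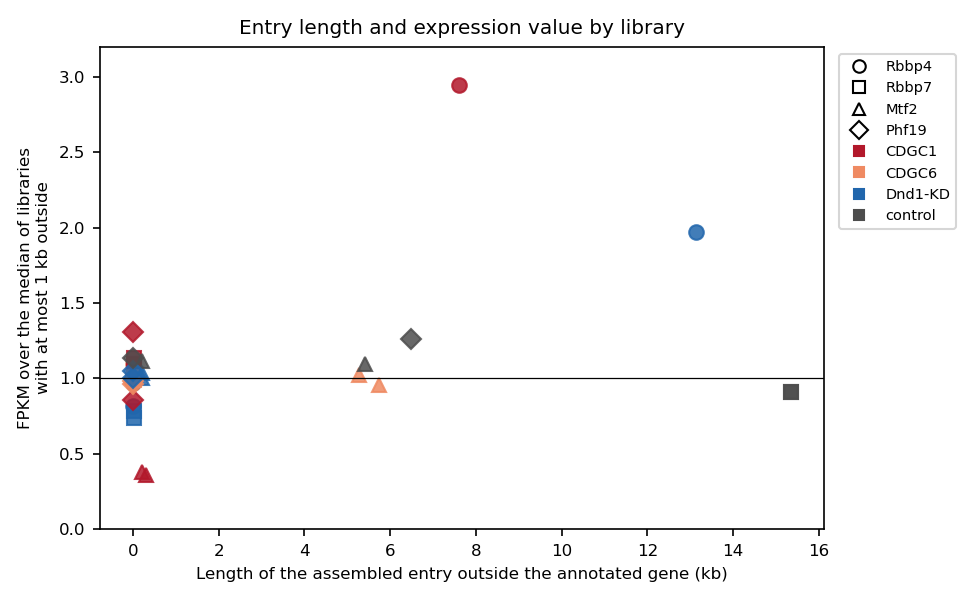
FPKM of Rbbp4, Rbbp7, Mtf2 and Phf19 in each library, divided by the median of the gene's libraries whose entry lies at most 1 kb outside the annotated gene (vertical axis), against the length of the entry outside the gene in kb (horizontal axis); symbols are genes and colours are groups. The 2 extended Rbbp4 entries lie at 2.95 and 1.98, and extended entries of the other genes at 0.912 to 1.26.

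Jarid2, the subunit of PRC2.2 that helps bring the complex to its targets, was the member that passed the test against control in all 3 other groups. Jarid2 (chromosome 13, 44729474 to 44921643, plus strand) had 42.2 and 48.2 FPKM in CDGC1, 65.8 and 76.7 in CDGC6, 82.8 and 63.9 in Dnd1-KD cells, and 107 and 102 in control libraries. Both control libraries were above all others and both CDGC1 libraries below all others, while CDGC6 and Dnd1-KD overlapped. The difference from control was −1.19 ± 0.14 in CDGC1 (adjusted p = 0.000958, limma), −0.55 ± 0.14 in CDGC6 (adjusted p = 0.0473) and −0.51 ± 0.14 in Dnd1-KD (adjusted p = 0.0354). The CDGC6 call was lost when any 1 of the CDGC1, CDGC6 or control libraries was left out (adjusted p of 0.0517 to 0.200), and the Dnd1-KD call without the first or second control library (0.152 and 0.111), without the second Dnd1-KD library (0.145) and with only the compared groups in the fit (0.0579).

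Mtf2, the most abundant of the Polycomb-like subunits here, showed the largest fall of the members in CDGC1. Mtf2 (chromosome 5, 108065674 to 108109004, plus strand) had 25.6 and 27.1 FPKM in CDGC1, 68.4 and 72.9 in CDGC6, 73.8 and 71.4 in Dnd1-KD cells, and 79.7 and 78.3 in control libraries. The CDGC1 libraries lay far below all others, and CDGC6 and Dnd1-KD overlapped. CDGC1 was at 33.3% of control (−1.55 ± 0.06, adjusted p = 1.7e-05, limma), a difference larger in size than that of 91.7% of all units tested. In CDGC6 the difference from control was −0.16 ± 0.06 (adjusted p = 0.133) and in Dnd1-KD −0.12 ± 0.06 (adjusted p = 0.190). The ratio of Mtf2 to Suz12 was 0.439 and 0.494 in CDGC1, 1.11 and 1.25 in CDGC6, 1.47 and 1.35 in Dnd1-KD cells, and 1.15 in both control libraries.

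**Figure D3:**
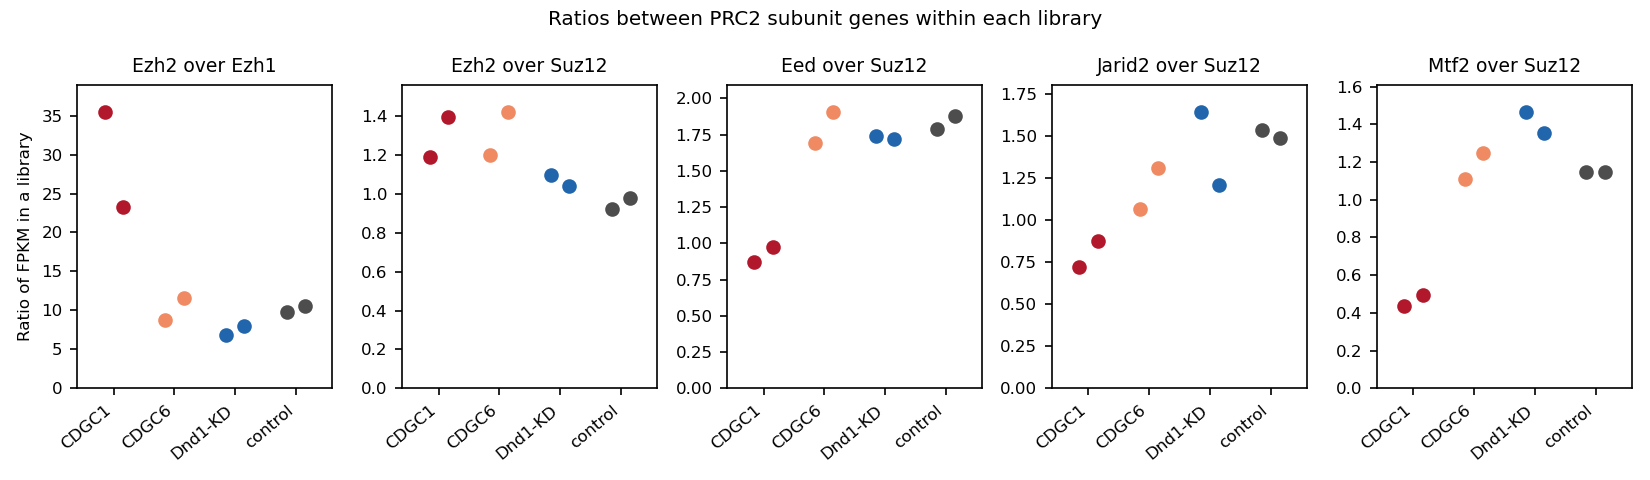
Ratios of FPKM between PRC2 genes within each library (vertical axes start at 0) in CDGC1, CDGC6, Dnd1-KD and control; each point is 1 library. CDGC1 has the highest Ezh2 to Ezh1 ratios, 35.5 and 23.3, and the lowest ratios of Eed, Jarid2 and Mtf2 to Suz12.

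The other Polycomb-like genes were low or had no value of their own. Phf19 (chromosome 2, 34893757 to 34914026, minus strand) had 1.20 and 1.83 FPKM in CDGC1, 1.35 and 1.38 in CDGC6, 1.47 and 1.40 in Dnd1-KD cells, and 1.77 and 1.59 in control libraries. The CDGC1 libraries spanned the range of all others and no comparison of Phf19 passed, although with quantile normalization CDGC1 was higher than CDGC6 (0.39, adjusted p = 0.0237, limma) and than Dnd1-KD (0.40, adjusted p = 0.0175). Phf1 (chromosome 17, 26933052 to 26937908, plus strand) was joined with its neighbour Kifc5b, a kinesin gene, in 4 libraries. Where it had its own entry, it had 3.21 FPKM in the second CDGC1 library, 3.96 and 3.81 in CDGC6 and 3.29 in the second Dnd1-KD library, beside 23.5, 23.9, 24.8 and 36.1 FPKM for Kifc5b in the same libraries. Phf1 therefore had no value of its own in control cells. The unit of both genes had 23.8 and 26.7 FPKM in CDGC1, 27.9 and 28.6 in CDGC6, 54.5 and 39.4 in Dnd1-KD cells, and 35.3 and 36.8 in control libraries. It was lower in CDGC1 than in control (−0.50 ± 0.15, adjusted p = 0.0336), a call that was lost without any 1 of the CDGC1, CDGC6 or control libraries (0.0564 to 0.133). In the first Dnd1-KD library Cuta, which overlaps Phf1, was listed at 0, against 66.0 FPKM in the second Dnd1-KD library and 42.8 and 43.1 FPKM in control libraries. Without the second Dnd1-KD library the unit was higher in Dnd1-KD than in control (0.58, adjusted p = 0.0223).

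**Figure D4:**
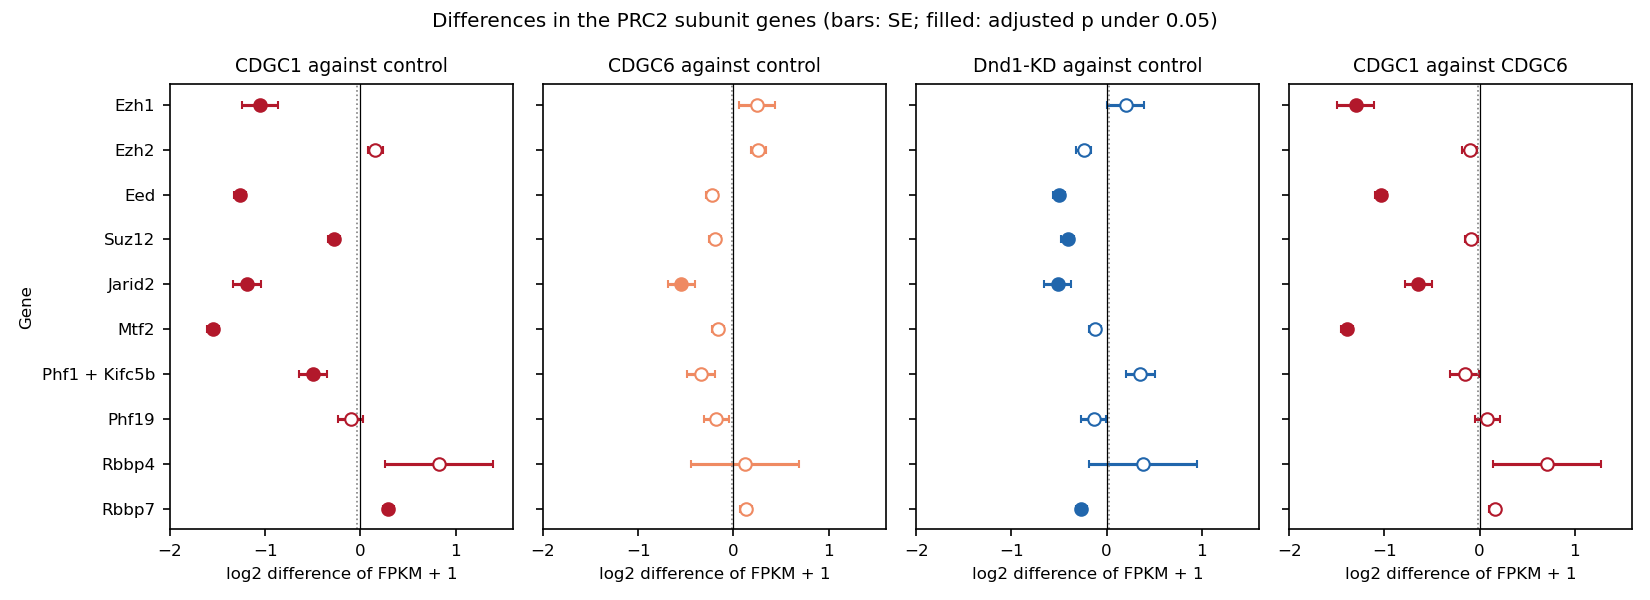
Log2 differences of FPKM + 1 (horizontal axes) of 9 PRC2 genes and the joint unit of Phf1 and Kifc5b in CDGC1, CDGC6 and Dnd1-KD against control and in CDGC1 against CDGC6; bars are the SE, filled points have an adjusted p under 0.05 and the dotted line is the median of all units. Mtf2, Eed, Jarid2 and Ezh1 are below −1 in CDGC1 against control.

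By mean level, the order of the groups from high to low was CDGC6, CDGC1, control and Dnd1-KD for Ezh2 and control, CDGC6, CDGC1 and Dnd1-KD for Suz12, and no 2 neighbours in either order passed the test of their difference. For Eed it was control, CDGC6, Dnd1-KD and CDGC1, where control and CDGC6 did not pass and the other neighbours did. Jarid2 and Mtf2 both ran control, Dnd1-KD, CDGC6 and CDGC1, with Dnd1-KD and CDGC6 not passing in either gene and control and Dnd1-KD not passing for Mtf2. Rbbp7 ran CDGC1, CDGC6, control and Dnd1-KD, and control against Dnd1-KD was the one pair of neighbours that passed.

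Set against control, the members were called most often in CDGC1 and least often in CDGC6, as were all units. Counts are over the 9 genes with a value of their own, since Phf1 had none in control cells. In CDGC1, 5 of 9 were lower, where 27% of all units were, and 1 was higher, where 23.6% of all units were (6 called in all, beside 50.5%). Their median log2 difference was −0.28, beside −0.03 for all units. In the same CDGC1 libraries Zfp42, Esrrb and Klf4, markers of the naive pluripotent state, lay at 0 to 1.19 FPKM, against 35.1 to 352 FPKM in control libraries. In Dnd1-KD, 4 of 9 were lower, where 15.5% of all units were, and 0 were higher, where 20.7% of all units were (36.2% in either direction), also 0 at an unadjusted p under 0.05 in limma. The median was −0.24, beside 0.02 for all units. In CDGC6, 1 of 9 was lower, where 10.2% of all units were, and 0 were higher (1 at an unadjusted p under 0.05), where 8.46% of all units were (18.7% in either direction). The median was −0.16, beside −0.01. The 3 comparisons share the control libraries.

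The derived lines differed from each other in 4 members. Mtf2 was lower in CDGC1 than in CDGC6 by −1.39 ± 0.06 (adjusted p = 3.3e-05, limma), Ezh1 by −1.30 ± 0.19 (0.00242), Eed by −1.04 ± 0.06 (8.6e-05) and Jarid2 by −0.64 ± 0.14 (0.0121). These were 4 of 9 genes lower, where 24.1% of all units were, and 0 higher (1 at an unadjusted p under 0.05), where 23.0% of all units were (47.2% in either direction). The Jarid2 call was lost without the first CDGC1 library (adjusted p = 0.0609) or the second CDGC6 library (0.0676). Ezh2, Suz12 and Rbbp7, which did not pass here, differed by −0.11 ± 0.08, −0.09 ± 0.06 and 0.16 ± 0.06, and Rbbp7 passed with median-ratio scaling (0.18, adjusted p = 0.0493, limma).

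Against Dnd1-KD cells, CDGC1 had 2 of 9 genes higher, where 26.7% of all units were, and 4 lower, where 35.0% were (61.6% in either direction). Rbbp7 was higher by 0.56 ± 0.06 (adjusted p = 0.000371, limma) beside Ezh2, and Ezh1 (−1.26), Eed (−0.76), Jarid2 (−0.68) and Mtf2 (−1.43) were lower. With median-ratio scaling Suz12 also passed (0.21, adjusted p = 0.0497). CDGC6 had 4 of 9 higher, where 24.3% of all units were, and 0 lower (also 0 at an unadjusted p under 0.05 in limma), where 29.3% were (53.6% in either direction). Those higher in CDGC6 were Ezh2 (0.50), Rbbp7 (0.40), Eed (0.27) and Suz12 (0.22). With quantile normalization Ezh2 alone of these still passed, and the Eed call was lost without the second CDGC6 or the first Dnd1-KD library (adjusted p = 0.0517 for each). The Suz12 call was lost without the first CDGC6 library or any 1 Dnd1-KD or control library (0.0579 to 0.113), with only the compared groups (0.0711) and without a trend (0.0506). The joint unit of Phf1 and Kifc5b was lower in CDGC1 (−0.85) and in CDGC6 (−0.70) than in Dnd1-KD. Kifc5b made up most of it wherever both had their own entry, and Phf1 alone had 3.21 FPKM in the second CDGC1 library and 3.96 and 3.81 in CDGC6, against 3.29 FPKM in the second Dnd1-KD library.

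Across the 8 libraries, the units of 1 symbol whose log2 values followed Ezh1 most closely were Faim (Pearson's r = 0.995), Ccdc28a (0.991), Pacsin3 (0.991), Oxr1 (0.988) and Sbk1 (0.988), out of 7563 compared. Those that followed Ezh2 were the ribosomal protein gene Rps16 (r = 0.996), 1110001J03Rik (0.995), Btf3 (0.989), Exosc9 (0.986) and the mitochondrial ribosomal protein gene Mrps15 (0.986). The 8 libraries fall into 4 groups and share their scaling, so these coefficients only describe the libraries. Rps16 had 1794 and 1902 FPKM in CDGC1, 1921 and 2089 in CDGC6, 1453 and 1440.2 in Dnd1-KD cells, and 1643 and 1699 in control libraries. As for Ezh2, its Dnd1-KD libraries were the lowest and the libraries of the derived lines the highest.

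Among other PRC2 accessory genes, Epop, listed under its older symbol E130012A19Rik and known as a subunit of PRC2.1 that is strongly expressed in ES cells, showed the largest fall in CDGC1. It had 18.3 ± 3.16 FPKM in CDGC1, 78.1 ± 15.1 in CDGC6, 56.6 ± 11.5 in Dnd1-KD cells, and 118 ± 4.92 in control libraries (SD, n = 2 each). It was lower than control in CDGC1 (−2.64, adjusted p = 0.000135, limma) and in Dnd1-KD (−1.07, adjusted p = 0.00984), and lower in CDGC1 than in CDGC6 (−2.03, adjusted p = 0.000480). Aebp2, the partner of Jarid2 in PRC2.2, was lower than control in CDGC1 (−0.31, adjusted p = 0.0224) and in CDGC6 (−0.59, adjusted p = 0.00854) and higher in Dnd1-KD (0.41, adjusted p = 0.0134). Of the 5 genes of this list, 3 were lower in CDGC1, 1 in CDGC6 and 1 in Dnd1-KD against control. These were 60%, 20% and 20% of the list, beside 27%, 10.2% and 15.5% of all units. The third in CDGC1 was AU022751 (Ezhip, an inhibitor of PRC2), with 0.165 ± 0.0843 FPKM in CDGC1 and 1.33 ± 0.0315 FPKM in control libraries (adjusted p = 0.000320).

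PRC1, the complex that ubiquitinates histone H2A and in some forms reads the mark made by PRC2, moved in both directions. Of 24 subunit genes tested (25 listed), 5 were higher and 10 lower in CDGC1 against control, or 20.8% and 41.7% of the list beside 23.6% and 27% of all units. In CDGC6 0 were higher and 4 (16.7%) lower, beside 8.46% and 10.2%, and in Dnd1-KD 8 (33.3%) were higher and 6 (25%) lower, beside 20.7% and 15.5%. At an unadjusted p under 0.05 in limma, 1 was higher in CDGC6. Cbx8, 1 of the 8 higher in Dnd1-KD, passed the filter on low values only with the Dnd1-KD libraries. Pcgf2, a core subunit, had 26.8 ± 2.04 FPKM in Dnd1-KD cells, and 74.8 ± 7.23 FPKM in control libraries (SD, n = 2 each; −1.45, adjusted p = 0.00371). It was lower than control in CDGC1 (−1.26, adjusted p = 0.00243, limma) and in CDGC6 (−0.85, adjusted p = 0.0316) as well. E2f6, a repressor found in a PRC1 variant, had 38.4 ± 0.575 FPKM in CDGC1 and 18.8 ± 0.578 FPKM in control libraries (0.99, adjusted p = 8.6e-05). The entry that joins Bcor, another subunit of PRC1 variants, with 2900008C10Rik was lower in CDGC1 (−1.36, adjusted p = 0.000191). Next came 6 genes for the H3K27 demethylases and the PR-DUB complex, which removes the PRC1 mark. Of these, Kdm6b was higher in Dnd1-KD (0.88, adjusted p = 0.0110, limma) and in CDGC1 (0.80, adjusted p = 0.00890). None passed in CDGC6, where 18.7% of all units did (2 lower at an unadjusted p under 0.05). In this list 2 were higher and 1 lower in CDGC1 (33.3% and 16.7%, beside 23.6% and 27% of all units). In Dnd1-KD 2 were higher (33.3%, beside 20.7%) and 0 lower (also 0 at an unadjusted p under 0.05 in limma), beside 15.5%. Asxl3, 1 of the 2 higher in CDGC1, passed the filter on low values only with the CDGC1 libraries. Of 16 genes of the NuRD, SIN3 and CAF-1 complexes, which share Rbbp4 and Rbbp7, 5 were higher and 2 lower in CDGC1 (31.2% and 12.5%, beside 23.6% and 27% of all units), 2 and 2 in CDGC6 (12.5% each, beside 8.46% and 10.2%), and 2 and 5 in Dnd1-KD (12.5% and 31.2%, beside 20.7% and 15.5%). The NuRD subunit Mbd3 was lower than control in all 3 groups, at 76.1 ± 0.192 FPKM in CDGC1, 106 ± 10.2 in CDGC6 and 89.3 ± 1.86 in Dnd1-KD, against 181 ± 21.3 FPKM in control libraries (SD, n = 2 each; adjusted p = 0.000200, 0.00700 and 0.00188, limma).

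Most listed genes of S phase and E2F targets were lower in Dnd1-KD, where Eed, Suz12, Jarid2 and Rbbp7 were lower too. Of 24 tested (25 listed), 18 were lower and 0 higher in Dnd1-KD against control (also 0 at an unadjusted p under 0.05 in limma), or 75% of the list beside 15.5% of all units, with a median of −0.47 beside 0.02. Uhrf1, a partner of Dnmt1 at replicating DNA, had 55.1 ± 6.08 FPKM in Dnd1-KD cells, and 104 ± 2.10 FPKM in control libraries (SD, n = 2 each; −0.90, adjusted p = 0.00176). Pcna, the sliding clamp of DNA replication, had 262 ± 2.53 FPKM in Dnd1-KD cells, and 380.0 ± 2.21 FPKM in control libraries (−0.53, adjusted p = 0.00210). In CDGC1 6 were higher and 5 lower than in control (25% and 20.8%, beside 23.6% and 27% of all units). In CDGC6 3 were higher and 1 lower (12.5% and 4.17%, beside 8.46% and 10.2%). Against Dnd1-KD, 16 (66.7%) were higher in CDGC1 and 16 (66.7%) in CDGC6, beside 26.7% and 24.3% of all units. In each 0 were lower, also at an unadjusted p under 0.05 in limma, beside 35.0% and 29.3%. The part of these S phase genes in the differences of Ezh2, Eed, Suz12 and Rbbp7 was not tested.

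Developmental genes known to be bound by PRC2 in ES cells did not move one way. Of the 17 tested (28 listed), 4 were higher and 9 lower in CDGC1 against control (23.5% and 52.9%, beside 23.6% and 27% of all units), and 2 and 5 in CDGC6 (11.8% and 29.4%, beside 8.46% and 10.2%). In Dnd1-KD 7 were higher and 2 lower (41.2% and 11.8%, beside 20.7% and 15.5%), but 4 of the 7 (Gata3, Gata4, Gata6 and Pax3) passed the filter on low values through the Dnd1-KD libraries alone. Likewise Msx1, 1 of the 4 higher in CDGC1, passed it only with the CDGC1 libraries. The T-box factor Eomes had 74.2 ± 8.26 FPKM in CDGC1 and 11.9 ± 4.88 in CDGC6, against 3.31 ± 0.319 FPKM in control libraries (SD, n = 2 each), and was called higher in both (4.12 and 1.53, adjusted p = 6.6e-05 and 0.0127, limma). Cdkn2b, a CDK inhibitor of the Ink4 locus, had 13.8 ± 1.04 FPKM in Dnd1-KD cells, and 3.88 ± 0.602 FPKM in control libraries (1.61, adjusted p = 0.00185). T, the mesoderm factor Brachyury, had 1.71 ± 0.111 FPKM in Dnd1-KD cells, and 20.9 ± 3.97 FPKM in control libraries (−3.00, adjusted p = 0.00149). The neural gene Neurod1 was lower in CDGC1 (−2.52, adjusted p = 1.8e-05). Pax6, one of the 9 counted as lower, was listed at 0 in both CDGC1 libraries and had 1.91 FPKM in each control library. A listed 0 may not reflect the level, as Cuta above was at 0 in the first Dnd1-KD library and at 66.0 FPKM in the second. No fall of Pax6 is therefore read from its 0, though the count of 9 includes it. Both libraries of 1 group could carry a gene past the filter on low values, so these counts do not speak for the listed genes that were left out.

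Only 6 of 39 Hox units passed that filter. Of these, Hoxc13, Hoxd9 and the unit of Hoxa7 with Mira passed it through the Dnd1-KD libraries alone, so that their higher calls in Dnd1-KD were largely set by the filter and are not counted. Hoxc13 had 2.74 and 3.56 FPKM in Dnd1-KD cells, and 0.879 and 0.949 FPKM in control libraries, and Hoxd9 had 1.31 and 1.37 FPKM in Dnd1-KD cells, and 0.284 and 0.356 FPKM in control libraries. Of the 6 units, 4 were lower than control in CDGC1 and 3 in CDGC6 (27% and 10.2% of all units). In each 0 were higher, also at an unadjusted p under 0.05 in limma, beside 23.6% and 8.46% of all units. Hoxd9 in CDGC1 was at −0.26 with the deposited scaling and at 0.25 with quantile normalization, so its direction rested on the scaling.

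**Figure D5:**
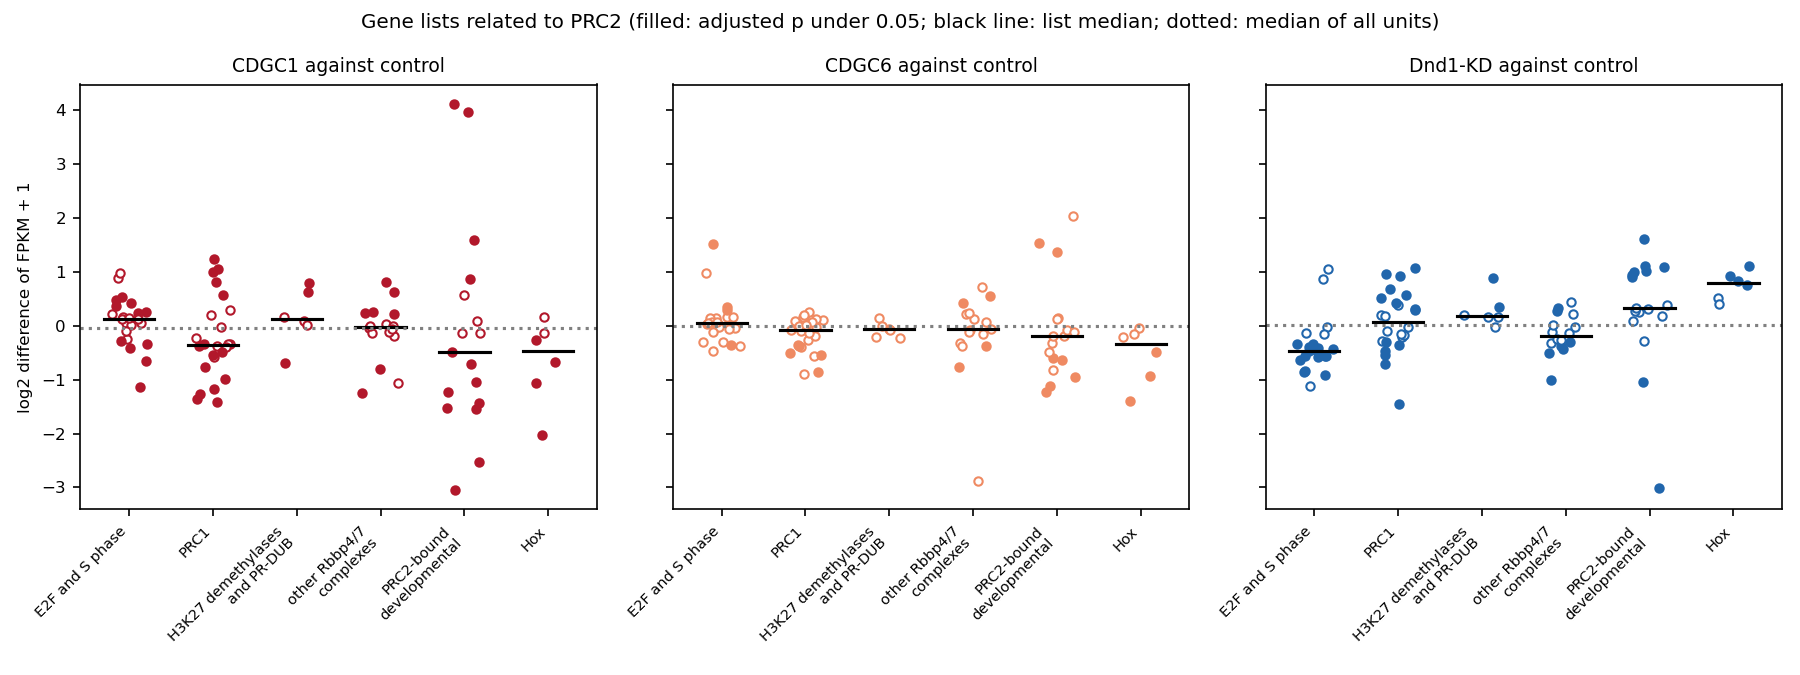
Log2 differences of FPKM + 1 (vertical axis) of the tested genes of 6 related lists in CDGC1, CDGC6 and Dnd1-KD against control; each point is a unit, filled where the adjusted p is under 0.05, black lines are list medians and the dotted line is the median of all units. The S phase list lies below the dotted line in Dnd1-KD, with a median of −0.47.

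Markers of the labelled cell type and of other cell types moved too. Of the 10 pluripotent cell markers, 7 were lower in CDGC1 than in control (27% of all units) and 8 in Dnd1-KD cells (15.5%). In CDGC6 0 were lower (10.2% of all units), or 1 at an unadjusted p under 0.05 in limma. Higher than control were 1 in CDGC1 (23.6%), 1 in CDGC6 (8.46%) and 0 in Dnd1-KD (20.7%). Tdgf1 had 376 and 440 FPKM in CDGC1, 464 and 470 in CDGC6, 112 and 70.1 in Dnd1-KD cells, and 252 and 234 FPKM in control libraries. Zfp42 had 0.0220 and 0 FPKM in CDGC1, 223 and 304 in CDGC6, 223 and 178 in Dnd1-KD cells, and 335 and 352 FPKM in control libraries. Esrrb had 0.211 and 0.140 FPKM in CDGC1 and 78.6 and 82.9 FPKM in control libraries (adjusted p = 6.2e-06, limma), and Klf4 had 1.05 and 1.19 FPKM in CDGC1 and 35.1 and 37.3 FPKM in control libraries (adjusted p = 8.2e-06). These 3 naive-state markers were thus at or near 0 in CDGC1, while Pou5f1 had 951 and 1027 FPKM in CDGC1 and 944 and 934 FPKM in control libraries. Summed over the 10 markers the level was 1659.6 to 1788 FPKM in CDGC1, 2410.4 to 2784 in CDGC6, 1084 to 1337 in Dnd1-KD cells, and 2215 to 2223 in control libraries, and without Pou5f1 it was 708 to 762 FPKM in CDGC1, 1286 to 1444 in CDGC6, 627 to 806 in Dnd1-KD cells, and 1271 to 1288 in control libraries.

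Summed fibroblast or feeder markers had 52.6 to 62.5 FPKM in CDGC1, 42.7 to 51.7 in CDGC6, 79.9 to 80.6 in Dnd1-KD cells, and 20.8 to 23.2 in control libraries. Acta2 alone made up 78.5 to 80.5% of the Dnd1-KD sum. Without it the sums were 38.7 to 40.2 FPKM in CDGC1, 30.2 to 37.7 in CDGC6, 15.7 to 17.2 in Dnd1-KD cells, and 10.5 to 11.2 in control libraries, so that Dnd1-KD was then below both derived lines. Of 9 tested (12 listed), 6 were higher than control in CDGC1, 6 in CDGC6 and 3 in Dnd1-KD (23.6%, 8.46% and 20.7% of all units). In CDGC1 1 was lower, where 27% of all units were. Of those higher, Pdgfrb in CDGC1 and Postn in CDGC6 passed the filter on low values only with the libraries of that group. Lum was listed at 0 in both CDGC6 and both Dnd1-KD libraries. Summed extraembryonic endoderm markers had 18.8 to 53.0 FPKM in CDGC1, 15.3 to 18.9 in CDGC6, 54.6 to 59.0 in Dnd1-KD cells, and 18.3 to 19.3 in control libraries. Single genes carried these sums too. Col4a1 had 44.4 and 40.5 FPKM in Dnd1-KD cells, and without it the Dnd1-KD sum was 14.1 to 14.6 FPKM, against 8.25 to 8.32 FPKM in control libraries. Foxa2 had 8.15 and 38.6 FPKM in CDGC1, and without it the CDGC1 sum was 10.6 to 14.5 FPKM, against 18.1 to 19.1 FPKM in control libraries. Of 6 tested (10 listed), 4 were higher in Dnd1-KD (20.7% of all units), of which Gata4 and Gata6 passed the filter through the Dnd1-KD libraries alone. In CDGC1 1 was higher and 3 were lower than in control, beside 23.6% and 27% of all units. In CDGC6 0 were higher (1 at an unadjusted p under 0.05 in limma) and 1 was lower, beside 8.46% and 10.2%. Ttr was listed at 0 in all 8 libraries and Afp in both CDGC6 libraries. In bulk RNA, fewer cells of a type and less RNA per cell cannot be told apart. The part of these cell type markers in the differences of the PRC2 genes was not tested.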

How the data were processed

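Total RNA of mouse pluripotent stem cells was purified for 8 libraries with RNeasy Plus Mini or Micro kits and prepared with the TruSeq RNA v2 kit, per the labels' protocols. Each library has its own gene tracking table made by Cufflinks, per the file headers, in which the deposited FPKM of an entry stands beside its interval. TopHat2, Bowtie, Cufflinks, Cuffdiff and mm10 are named in the submitters' processing notes, and versions and roles are not given in the sources used here. Stranded counting is not stated, so reads of a gene and of an overlapping gene on the other strand cannot be told apart.

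Where any library joined symbols into 1 entry, they made up 1 unit throughout and their FPKM was summed, and small RNA genes were removed (GENCODE vM21). Between 24 and 26 names a library that read as dates were left as they stand. Of 21989 units, the 11893 that reached 1 FPKM in 2 libraries were tested by limma 3.58.1 in R 4.3.3 on log2(FPKM + 1), fitting 4 group means to 8 libraries (eBayes with a trend, two-sided) with Benjamini-Hochberg adjustment with a threshold of 0.05. The script was tested on simulated data. Tables and figures were made with Python 3.11.15, pandas 2.3.3, numpy 2.4.6 and matplotlib 3.10.9. Fragment totals were implied from each FPKM and its interval, read as a Poisson interval. Without read counts, the depth behind a single value is unknown.

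Groups came from the labels, and 6 pairwise comparisons were made. Beside the members, the text names up to 4 genes of each related list with the smallest p in a comparison, and the 5 units most like Ezh1 and Ezh2. Members, lists and tests were chosen with earlier results of these data known. Alternatives were median-ratio scaling and quantile normalization, pseudocounts of 0.1 and 5, a filter at 5 FPKM or none, a replicate block, no trend, the highest entry per unit, a fit of the compared groups only, and each library omitted in turn. Chosen after seeing the data were Rbbp4 set to missing where its entry runs more than 1000 bases past the gene, units of 1 symbol with no library at 0, and counting members over the 9 genes with a value of their own. Promoter windows and transcription starts were taken from RefSeq, where all 10 members matched by symbol.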

Additional observations from a re-analysis of the deposited data

Results flagged for a closer look

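The differences from control of 4 members were not the same in the 2 derived lines, by the test of CDGC1 against CDGC6, in which the shared control cancels. That difference was −1.39 for Mtf2, −1.30 for Ezh1, −1.04 for Eed and −0.64 for Jarid2 on the log2 scale, each lower in CDGC1 in 2 of 2 libraries.

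An assembled entry without a gene name lay inside the Jarid2 gene, at chromosome 13, 44869571 to 44869684 (mm10), and overlapped no annotated exon. It drew attention because it is outside the measurements compared here and was found in no control library. Its value was 49709.8 FPKM in the first CDGC1 library, 36950.3 and 25051 FPKM in CDGC6, and 94330 and 104049 FPKM in Dnd1-KD libraries. No such entry was found in the second CDGC1 library or in either control library. The entry is 113 or 114 bases long, and it was the 8th highest of its library in both Dnd1-KD libraries. The value of Jarid2 itself was lower in all 6 libraries outside control, with and without the entry, and whether they are linked was not tested.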

How the results depend on the processing

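Counts here are over 10 units, the joint unit of Phf1 and Kifc5b included. Over these, 1127 of the values under all alternatives kept their side of the threshold, 45 lost the call, 15 gained one and 1 reversed. Direction was compared only where a value passed in the report or under the alternative. Values that passed in neither may have changed sign and stand among the 1127. The count of members called in CDGC6 against control, 1 in the report, was 0 with a pseudocount of 0.1, without a filter, with the replicate block and without trend, and 2 with quantile normalization and with only the compared groups. In CDGC6 against Dnd1-KD it was 5, and 2 with quantile normalization. Leaving out 1 library gave 1 to 5 members in Dnd1-KD, 4 to 7 in CDGC1 and 0 to 1 in CDGC6 against control, and 3 to 5 in CDGC6 against Dnd1-KD. Over all units it gave 1363 to 4928 calls in Dnd1-KD against control, with 1363 and 1627 without the first and second control library and 1935 without the second Dnd1-KD library, beside 4310 with all. In CDGC6 against control it gave 422 to 2903 calls, with 422 and 491 without the first and second control library and 1448 and 1323 without the first and second CDGC6 library, beside 2220 with all.

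With quantile normalization Hoxd9 reversed to 0.25 in CDGC1 against control, and Hoxc13 and Hoxd9 to 0.41 and 0.48 in CDGC1 against CDGC6. Rbbp4 reversed to 0.37 in CDGC6 against Dnd1-KD, where it was −0.26, with its extended entries missing, which leaves 1 Dnd1-KD library. Otherwise the cause was not tested. Scaling moved the median of all units by over 0.1 only in CDGC1 against Dnd1-KD, to 0.01 with quantile normalization, beside −0.09. Same-numbered libraries of 2 groups deviated together with correlations of −0.05 to 0.12, so the replicate numbers were not taken as pairs. With the replicate block, members called numbered 3 in Dnd1-KD, 6 in CDGC1 and 0 in CDGC6 against control, 4 in CDGC1 against CDGC6, and 7 and 5 in CDGC1 and CDGC6 against Dnd1-KD. All units called under the block numbered 3923, 5781, 1654, 5367, 7138 and 6119 of 11893 in the same order. The calls lost were Jarid2 in Dnd1-KD and CDGC6 (adjusted p = 0.0580 and 0.0760, limma) and the unit of Phf1 and Kifc5b in CDGC1 (0.0525). With only the compared groups that unit passed in CDGC6 against control (−0.34, adjusted p = 0.0299). With 2 libraries a group and no read counts, small differences and genes near 1 FPKM are the least certain.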
